A study of Mus musculus with 10 samples.

Results

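Hepatic expression of 6 genes around the LDL receptor family was examined: Vldlr, Lrp5 and Lrp6, which encode receptors of the family, Mylip, which encodes a ubiquitin ligase that marks some receptors of the family for degradation, Sort1, which encodes a sorting receptor, and Lrpap1, which encodes a chaperone. The genes were chosen by symbol, by a list of names, from the 24421 genes listed. The list itself uses no measured value, but it was chosen with earlier results of these data known. All 6 genes were among the 11092 with enough counts for a test. Liver mRNA came from 10 male wild-type C57BL/6 mice aged 21 weeks with free access to food. The Chow group (n = 5) ate standard chow, and the TM5614 group (n = 5) ate chow containing TM5614, an orally active small molecule that inhibits plasminogen activator inhibitor-1, at 20 mg/kg/day for 10 days. Each mouse gave 1 library, and the question was whether the drug altered the expression of these genes.

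Receptors of the LDL receptor family sit in the plasma membrane, bind lipoproteins and other ligands, and carry them into the cell. After endocytosis a receptor is either recycled to the surface or sent to the lysosome. The liver clears most circulating LDL in this way, so the number of receptors on hepatocytes bears on plasma cholesterol, and that number is set by folding, recycling and ubiquitin-dependent degradation as well as by transcription. Lrp5 and Lrp6 belong to the same family by structure but act mainly as co-receptors of Wnt ligands, together with Frizzled proteins.

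The total count per library was between 6398335 and 10874955. The 8 markers of hepatocytes were abundant as a sum in every library, at 105301 to 134713 CPM, which are counts scaled by library total and TMM factor. Most of this was Alb (means of 87718 CPM in Chow and 79101 CPM in TM5614), and Ass1 was low (2.56 and 2.09 CPM). In edgeR 0 of the 8 passed, and DESeq2 called 1, Ttr, as lower (adjusted p = 0.0423). Without Chow replicate 2 and TM5614 replicate 2, Ttr also passed as lower in edgeR (log2 fold change -0.41, adjusted p = 0.0252), where 11.1% of all genes passed. Chow replicate 2 stood apart: 46.0% of the variance of its genes around the median of the libraries followed a smooth trend on GC content and transcript length, and 0.763% to 11.5% did in each other library. TM5614 replicate 2 held skeletal muscle transcripts, with a sum of 4485 CPM over 14 muscle markers. The rest of the TM5614 group had 1.29 to 79.9 CPM, and the Chow libraries had 0.736 to 1.25 CPM. With all libraries kept, all 10 Kupffer cell markers had lower estimates in TM5614. Of them, 0 passed in edgeR or DESeq2, and 0 had an unadjusted p under 0.05 in edgeR. Their sums were 83.4 to 264 CPM in Chow and 83.2 to 178 CPM in TM5614. Without Chow replicate 2 and TM5614 replicate 2, Clec4f (log2 fold change 0.05) and Vsig4 (0.07) had higher estimates, and the rest stayed lower. In bulk liver, fewer cells of a type and less RNA per cell cannot be told apart. Because 2 libraries stood apart, the difference of each of the 6 genes is given with and without them.

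Levels were compared between genes in FPKM, the deposited unit that is scaled by gene length. Over all 10 libraries Lrp5 had the highest mean (13.9 FPKM), with 11.8 ± 1.64 FPKM in the Chow group and 16.0 ± 1.57 FPKM in the TM5614 group (SD, n = 5 each). Lrp6 (12.4 FPKM over all libraries) followed with 11.6 ± 3.75 and 13.2 ± 1.20 FPKM, and Lrpap1 (11.4 FPKM) with 11.96 ± 2.09 and 10.7 ± 0.794 FPKM, the highest of the 3 in the Chow group. These 3 overlapped in range, and Lrp5 was above Lrp6 in 7 of 10 libraries. Their mean levels lay above those of 65.9% to 70.6% of the tested genes. Sort1 was lower, at 3.89 ± 0.513 and 3.00 ± 0.534 FPKM, and Lrpap1 exceeded it in all 10 libraries, by 2.42 to 4.84 times. Mylip (1.99 ± 0.739 and 2.33 ± 0.437 FPKM) and Vldlr (1.00 ± 0.443 and 1.102 ± 0.855 FPKM) were the lowest, and each neighbouring pair among Sort1, Mylip and Vldlr kept its order in 9 of 10 libraries. Vldlr is a gene mainly of heart, skeletal muscle and fat, and its mean was above that of 13.0% of the tested genes.

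**Figure D1:**
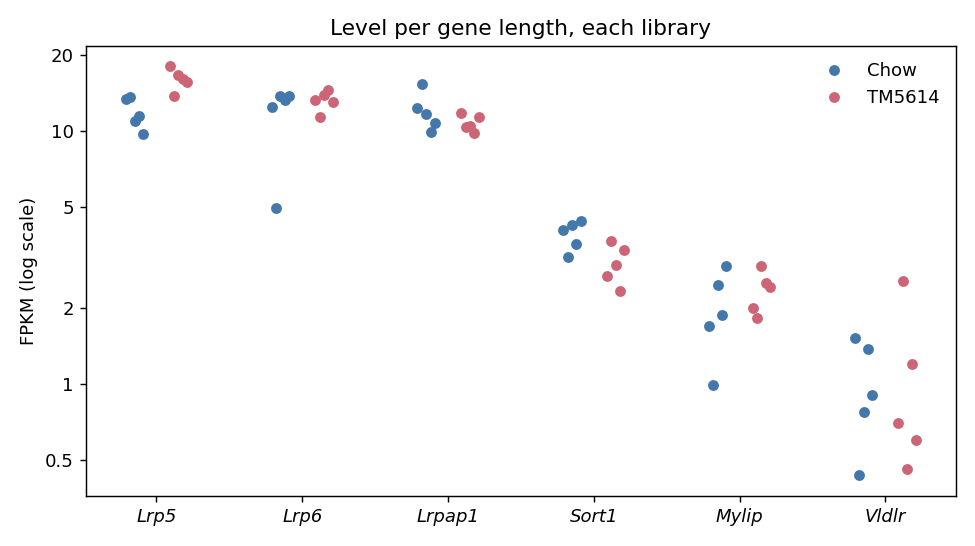
FPKM of each gene in each of the 10 libraries, on a log scale, ordered by the mean over all libraries; blue points are Chow and red points TM5614. Lrp5, Lrp6 and Lrpap1 lie together at the top, apart from 1 Chow library at 4.95 FPKM for Lrp6, and Vldlr is lowest with the widest scatter.

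Of the 6 genes, 0 passed an adjusted p of 0.05 between the groups in edgeR's quasi-likelihood test, where 4.5% of all tested genes did (1.73% higher and 2.77% lower). The unadjusted p was under 0.05 for 2, Lrp5 and Sort1, where 20.4% of all genes had such a p. Only Lrp5 had groups that did not overlap in CPM, as did 8.93% of all genes, 4.07% with the TM5614 group higher. DESeq2, the tool of the study, called 1 of the 6 (Lrp5, against 8.14% of all genes) and limma-voom with sample quality weights called 2 (Lrp5 and Sort1, against 12.5%). The estimates were higher in TM5614 for 4 genes and lower for 2, and their median log2 fold change was 0.17, beside 0.01 over all genes tested.

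**Figure D2:**
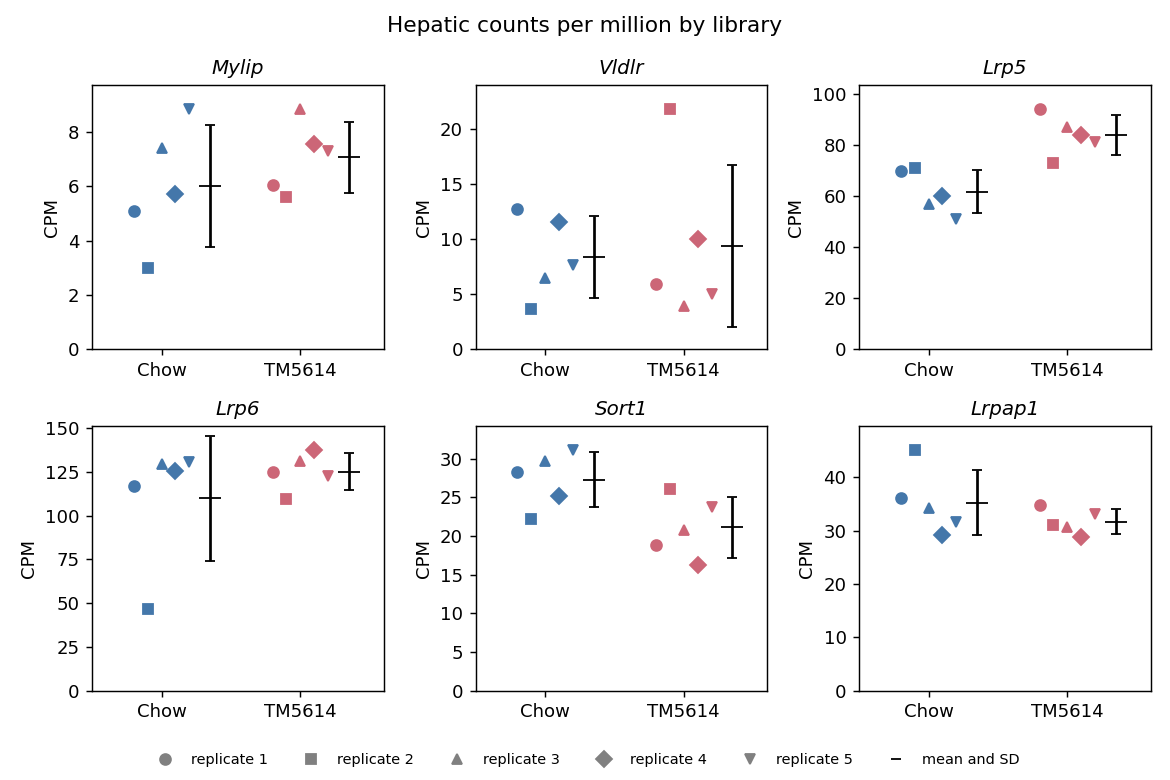
CPM of the 6 genes by library (points, with a marker shape for each replicate number) and the mean ± SD of each group (n = 5, black). Lrp5 is the only gene whose groups do not overlap; Chow replicate 2 (square) is lowest of all libraries for Mylip, Vldlr and Lrp6 and highest for Lrpap1.

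Lrp5 (chromosome 19, 3584828 to 3686564, minus strand, GRCm38; protein-coding) was the gene nearest to a change. Its level was 69.7, 70.9, 57.0, 60.0 and 51.1 CPM in Chow replicates 1 to 5. The TM5614 replicates had 94.1, 72.8, 87.0, 83.9 and 81.1 CPM. All 5 TM5614 libraries were above all 5 Chow libraries, although TM5614 replicate 2 was only just above Chow replicate 2. The means were 61.7 ± 8.47 and 83.8 ± 7.81 CPM (SD, n = 5 each), which is 35.7% more in TM5614 (log2 fold change 0.44, SE 0.12, 95% interval 0.18 to 0.70). The adjusted p was 0.0613 in edgeR and 0.0136 in DESeq2. It passed in edgeR without Chow replicate 2 (log2 fold change 0.49, adjusted p = 0.0118), where 1031 genes passed. It also passed without both libraries that stood apart (0.54, adjusted p = 0.00478), where 11.1% of all genes passed. For Lrp5 these were the highest Chow library (70.9 CPM) and the lowest TM5614 library (72.8 CPM), so leaving them out widens the difference. With GC content and length corrected Lrp5 passed as well (0.48, adjusted p = 0.0394), where 731 genes did. With all libraries kept, 499 genes passed in edgeR. Without TM5614 replicate 2 alone, Lrp5 did not pass (0.48, adjusted p = 0.0676 in edgeR).

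Lrp6 (chromosome 6, 134446476 to 134566965, minus strand), the other Wnt co-receptor, did not pass. It stood at 117, 46.9, 129.7, 125 and 130.4 CPM in Chow replicates 1 to 5. In TM5614 replicates 1 to 5 it stood at 125, 109, 131, 137 and 123 CPM. The groups overlapped, and 9 of the 10 libraries lay between 109 and 137 CPM, with Chow replicate 2 far below them. The log2 fold change came to 0.19 (SE 0.23, 95% interval -0.31 to 0.68, edgeR adjusted p = 0.660). Without Chow replicate 2 it was -0.01 (SE 0.08), and the interval of -0.19 to 0.16 then held folds between 0.878 and 1.12. Without both libraries that stood apart it was 0.04 (adjusted p = 0.813 in edgeR). In Chow replicate 2, Lrp6 differed by -1.44 in log2 CPM from the median of the other Chow libraries, and the trend on GC content and length came to -0.71 for this gene, whose longest transcript has 9368 bases and 46.0% GC. For Lrp5 (8893 bases, 54.7% GC) that trend was -0.04. With GC content and length corrected the log2 fold change of Lrp6 was 0.10 (SE 0.13).

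The number of Lrp5 counts per Lrp6 count put both co-receptors on 1 scale within a library. It was 0.596, 1.51, 0.440, 0.479 and 0.391 in Chow replicates 1 to 5. Across TM5614 replicates 1 to 5 it was 0.753, 0.665, 0.663, 0.611 and 0.660. Apart from Chow replicate 2, where Lrp6 was low, the Chow ratios lay under all 5 TM5614 ratios, and the nearest libraries of the groups were 0.596 and 0.611. The ratio is given as a description, and no test was made on it.

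**Figure D3:**
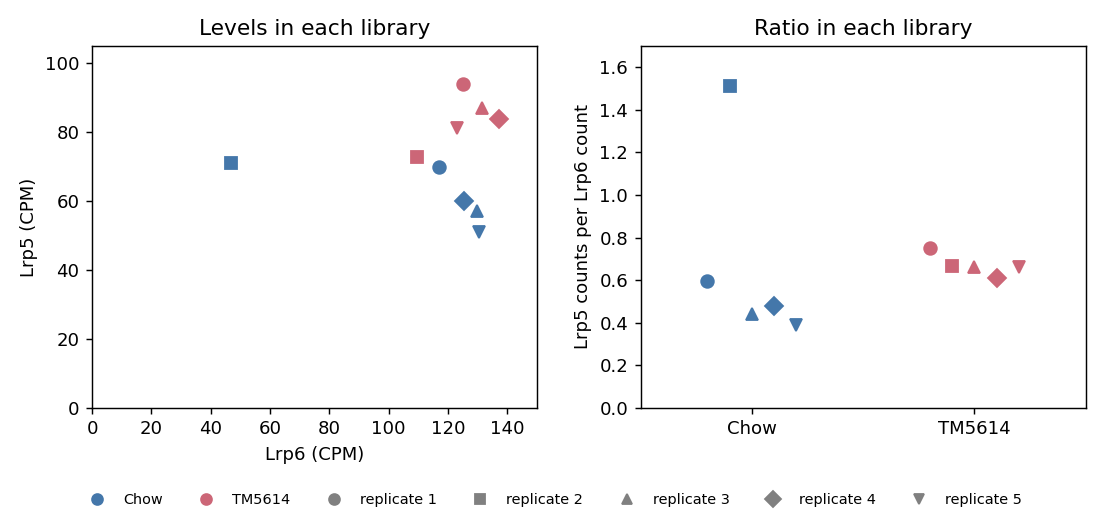
Lrp5 against Lrp6 in CPM (left) and the ratio of their counts (right) in each library; blue is Chow, red is TM5614, and marker shapes give the replicate number. Lrp6 is between 109 and 137 CPM in 9 libraries while Lrp5 is higher in the TM5614 libraries, and Chow replicate 2 lies alone at 46.9 CPM of Lrp6 with a ratio of 1.51.

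Sort1 (chromosome 3, 108284082 to 108361511, plus strand) encodes sortilin, a receptor of the Golgi and endosomes that binds apolipoprotein B and sorts proteins to the lysosome. Its level was 28.3, 22.2, 29.6, 25.2 and 31.1 CPM in Chow replicates 1 to 5. The TM5614 replicates held 18.8, 26.1, 20.8, 16.2 and 23.7 CPM. None of the 5 TM5614 libraries was above the Chow median, and 3 were below the lowest Chow library. The log2 fold change was -0.37 (SE 0.15, 95% interval -0.69 to -0.05), or 22.6% less, which gave an unadjusted p of 0.0283 and did not pass after adjustment (edgeR adjusted p = 0.190; DESeq2 adjusted p = 0.140). Without both libraries that stood apart it passed (log2 fold change -0.53, SE 0.12, adjusted p = 0.0170 in edgeR). For Sort1 these were the lowest Chow library (22.2 CPM) and the highest TM5614 library (26.1 CPM), so leaving them out widens the difference. Sort1 did not pass in edgeR without Chow replicate 2 alone (-0.45, adjusted p = 0.0529) or without TM5614 replicate 2 alone (-0.46, adjusted p = 0.131). Nor did it with GC content and length corrected (-0.41, adjusted p = 0.0831 in edgeR). An annotated antisense gene, Gm12523, overlaps Sort1 exons, and since the use of strand in counting is not given in the sources used here, reads of the pair cannot be told apart.

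Mylip (chromosome 13, 45389742 to 45412022, plus strand) encodes IDOL, the E3 ubiquitin ligase that marks the LDL receptor and the VLDL receptor for degradation. The sterol sensor LXR can induce Mylip in some tissues, and whether it does so in these livers was not tested. The level of Mylip was 5.09, 2.99, 7.41, 5.70 and 8.83 CPM in Chow replicates 1 to 5. Across the TM5614 replicates it was 6.03, 5.58, 8.83, 7.54 and 7.29 CPM. The TM5614 libraries all lay within the range of the Chow libraries. The log2 fold change was 0.23 (SE 0.26, 95% interval -0.33 to 0.79, edgeR adjusted p = 0.628), so folds between 0.797 and 1.73 are within the interval. Without Chow replicate 2 the estimate was 0.04 (adjusted p = 0.922 in edgeR), and without both libraries that stood apart it was 0.12 (adjusted p = 0.762). Each library held 31 to 96 Mylip counts, and counting error alone gives a coefficient of variation of 14.7% in Chow and 13.4% in TM5614, where 37.2% and 18.3% were seen.

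Vldlr (chromosome 19, 27216484 to 27254231, plus strand) encodes the VLDL receptor, which binds lipoproteins rich in apolipoprotein E and is a target of IDOL. Its level was 12.7, 3.67, 6.47, 11.6 and 7.64 CPM in Chow replicates 1 to 5. In TM5614 replicates 1 to 5 it was 5.89, 21.8, 3.90, 10.1 and 5.03 CPM. TM5614 replicate 2, the library with muscle transcripts, was the highest of the 10, and the other TM5614 libraries lay within the Chow range. The part of muscle RNA in this value was not tested. The log2 fold change was 0.16 with an SE of 0.46 and a 95% interval of -0.85 to 1.17 (adjusted p = 0.866 in edgeR). The sign turned to -0.42 without TM5614 replicate 2 (adjusted p = 0.531) and to -0.61 (SE 0.29, adjusted p = 0.205 in edgeR) without both libraries that stood apart.

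Lrpap1 (chromosome 5, 35091501 to 35105766, minus strand) encodes RAP, the chaperone of the endoplasmic reticulum that keeps newly made receptors of the family from binding ligand too early. Its level was 36.0, 45.0, 34.1, 29.2 and 31.6 CPM in Chow replicates 1 to 5. The TM5614 replicates had 34.8, 31.0, 30.7, 28.8 and 33.2 CPM. The groups overlapped, and the TM5614 libraries varied little, with a coefficient of variation of 7.28%, near the 6.18% of counting error. The log2 fold change was -0.15 with an SE of 0.13 (adjusted p = 0.518 in edgeR) and an interval of -0.43 to 0.13 that spans folds from 0.742 to 1.09. Without both libraries that stood apart it was -0.04 (SE 0.09, adjusted p = 0.816 in edgeR).

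**Figure D4:**
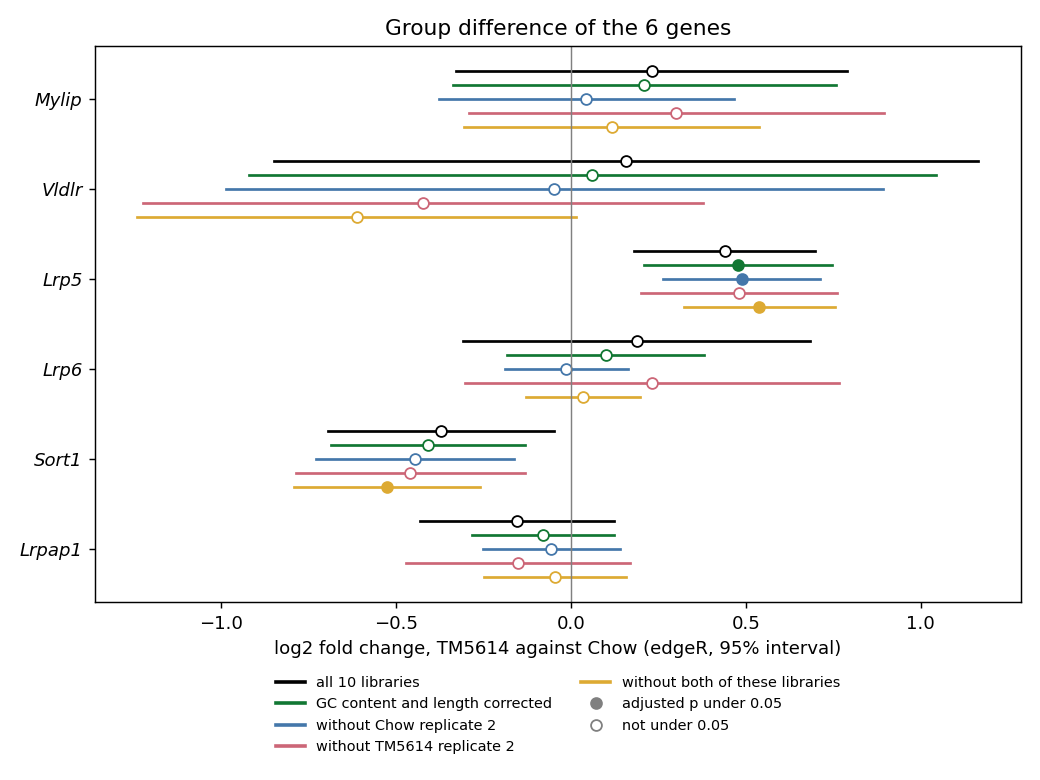
Log2 fold change of TM5614 against Chow with its 95% interval for each gene (edgeR), for all 10 libraries, with GC content and length corrected, and with Chow replicate 2, TM5614 replicate 2 or both left out; filled points have an adjusted p under 0.05. Lrp5 stays between 0.44 and 0.54, Sort1 between -0.53 and -0.37, and Vldlr moves from 0.16 to -0.61.

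The 6 genes did not follow 1 common pattern from mouse to mouse. Over the 10 libraries, log2 CPM of Mylip and Lrp6 had Pearson's r = 0.87, and Lrpap1 ran opposite to both (r = -0.76 with Mylip and -0.85 with Lrp6). Without the 2 libraries that stood apart these values were 0.74, -0.40 and -0.71 over 8 libraries. Lrp5 and Sort1 ran opposite to each other, with r = -0.83 over 10 libraries and -0.66 for deviations from the group means. Lrp5 and Lrp6 had r = 0.01, and -0.47 for deviations from the group means. These are descriptions of libraries that share group, depth and base composition, and 15 pairs were computed.

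The genes that act with these 6 were taken from lists, and 0 to 2 of each passed in edgeR. These counts stand beside the 4.5% of all genes that passed in edgeR, the 8.14% in DESeq2 and the 20.4% with an unadjusted p under 0.05. Of 13 genes for related receptors and the ligand reelin, 9 were tested and 1 was lower: Ldlrad4, which encodes a membrane protein with an LDL receptor class A domain that restrains TGF-beta signalling, with 8.40 ± 1.32 CPM in Chow and 5.00 ± 0.537 CPM in TM5614 (log2 fold change -0.74, SE 0.16, edgeR adjusted p = 0.0208). Lrp4, a receptor for agrin in muscle, had 46.8 ± 10.0 and 31.6 ± 3.78 CPM and did not pass in edgeR (log2 fold change -0.57, adjusted p = 0.0630), but did in DESeq2 (adjusted p = 0.0149) and, in edgeR, without both libraries that stood apart (-0.61, adjusted p = 0.00781). Of the 9 tested genes of this list, 4 had an unadjusted p under 0.05 in edgeR. The median log2 fold change of this list was -0.37, beside 0.01 over all genes. Lrp8, Sorcs1, Sorcs2 and Sorcs3 had 2 to 12 counts over all libraries together and were not tested.

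The machinery that returns receptors to the surface, made of the retromer, retriever, CCC and WASH complexes, came next. All 25 genes of that list were tested, 0 passed in edgeR or DESeq2, 2 had an unadjusted p under 0.05 in edgeR, and the median log2 fold change was -0.05. Among 21 genes of receptor ubiquitination and sorting to the lysosome, 1 was lower and 0 were higher, about the share of all genes. This was Usp2, a deubiquitinase that counteracts IDOL and is also a clock-controlled gene, rather than a ligase or sorting component. Usp2 averaged 125 ± 33.4 CPM in Chow and 24.2 ± 14.5 CPM in TM5614 (log2 fold change -2.36, SE 0.36, adjusted p = 0.00315 in edgeR), and every TM5614 library (12.2 to 47.6 CPM) was below every Chow library (66.6 to 152 CPM). In its list 3 of 21 genes had an unadjusted p under 0.05 in edgeR, and the median was 0.11. The conjugating enzymes Ube2d1, Ube2d2a and Ube2d3, with which IDOL works, had log2 fold changes of 0.21 to 0.28 and did not pass (edgeR adjusted p from 0.227 to 0.416).

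The list of LXR and its targets, which leaves out Mylip, held 14 tested genes. Of these, 2 were lower and 0 higher in edgeR, with a median of -0.32. The 2 were Srebf1, which encodes the lipogenic factor SREBP-1 (log2 fold change -1.84, SE 0.19, adjusted p = 0.000402 in edgeR) and Scd1, a fatty acid desaturase (-1.19, SE 0.24, edgeR adjusted p = 0.0162), and Scd1 is also a target of SREBP-1. Neither LXR gene passed (Nr1h3 -0.31 and Nr1h2 -0.34, edgeR adjusted p = 0.364 and 0.200), nor did the sterol transporters Abca1, Abcg1, Abcg5 and Abcg8 (log2 fold changes of -0.31 to 0.24, edgeR adjusted p from 0.323 to 0.924). Without both libraries that stood apart Abcg5 (-0.57, adjusted p = 0.00274) and Abcg8 (-0.41, adjusted p = 0.0437) passed as lower in edgeR. With all libraries kept, 6 of the 14 had an unadjusted p under 0.05 in edgeR. DESeq2 called 4 of the 14, adding Cyp7a1 and Lpcat3.

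Of the Wnt receptor list, 21 of 35 genes were tested and 1 was higher. Axin2, a Wnt target and a scaffold of the beta-catenin destruction complex rather than a receptor, had 4.53 to 7.73 CPM in Chow and 7.92 to 14.2 CPM in TM5614 (log2 fold change 0.90, SE 0.21, edgeR adjusted p = 0.0304). Fzd7, a Wnt receptor, had a log2 fold change of 0.61 (edgeR adjusted p = 0.0825, DESeq2 adjusted p = 0.0280), and Dvl2, which relays the signal, had -0.90 (edgeR adjusted p = 0.0835, DESeq2 adjusted p = 0.0346). Mesd (listed as Mesdc2), the chaperone of Lrp5 and Lrp6, had 0.18 (edgeR adjusted p = 0.335). Of the 21 tested genes of the Wnt list, 5 had an unadjusted p under 0.05 in edgeR, and the median was 0.07. In the sortilin sorting machinery 0 of 12 tested genes passed in edgeR or DESeq2, 1 had an unadjusted p under 0.05 in edgeR, and the median was 0.03. Celsr2, Psrc1 and Mybphl, the neighbours of Sort1, had 72, 11 and 0 counts over all libraries and were not tested. Without both libraries that stood apart, where 11.1% of all genes passed in edgeR, the 5 genes named above as passing all did so again: Ldlrad4 (-0.70, adjusted p = 0.0215), Usp2 (-2.12, adjusted p = 0.00213), Srebf1 (-1.86), Scd1 (-1.37, adjusted p = 0.00361) and Axin2 (0.90, adjusted p = 0.0130). The genes that joined them were Lrp4, Ldlrad3 (-0.78), Vps28 (-0.34), Abcg5, Abcg8 and Dvl2 (-1.01), and Fzd7 did not pass (0.51, adjusted p = 0.0876 in edgeR). The counts were then 3 of 9 related receptors, 2 of 21 ubiquitination and sorting genes, 4 of 14 LXR genes and 2 of 21 Wnt receptor genes. They were 0 in the recycling and sortilin lists. The counts of 2 of 21 are near the share of all genes, and those of 3 of 9 and 4 of 14 are above it. No test was made on the lists.

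**Figure D5:**
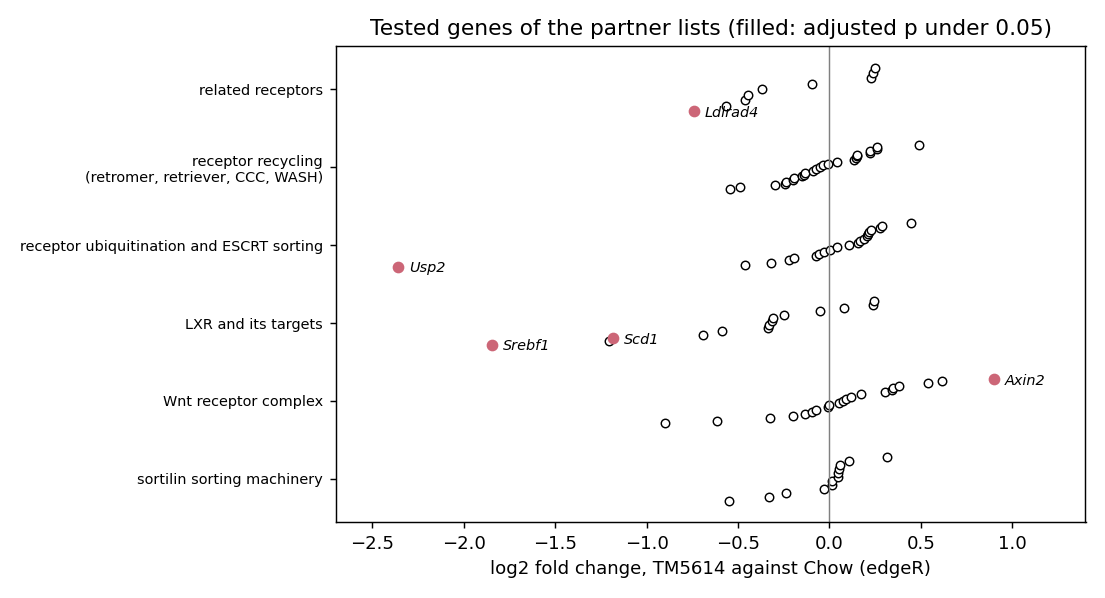
Log2 fold change (TM5614 against Chow, edgeR) of every tested gene in the 6 partner lists that held tested genes, 1 point per gene; filled red points have an adjusted p under 0.05 and are named. Usp2, Srebf1, Scd1 and Ldlrad4 lie to the left and Axin2 to the right, and the recycling and sortilin lists hold 0 filled points.

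For each of the 6, the 3 named genes with the most similar log2 CPM over the 10 libraries were found by Pearson's r. Those of Lrp5 were Eps8l2 (r = 0.99), Fam20a (0.93) and Ei24 (0.92). Eps8l2 passed the test, with a log2 fold change of 0.64 (edgeR adjusted p = 0.0416). Fam20a and Ei24 did not (edgeR adjusted p = 0.0838 and 0.226). Eps8l2 was picked for its likeness to Lrp5 over the same libraries, so its test is not independent of that of Lrp5. Those of Lrp6 were Casd1, Erbb2ip and Dmxl1 (r of 0.994 to 0.996), and without the 2 libraries that stood apart their r was 0.635 to 0.785. Those of Mylip were Zdhhc21 (0.97), Ube4a (0.95) and Ppp1r3b (0.95). Those of Sort1 were Ago1 (0.88), Specc1l (0.87) and the sterol transporter gene Abcg5 (0.84). Vldlr was followed by Bcas2 (0.88), Rnf128 (0.86) and Mknk1 (0.85), and Lrpap1 was followed by Lrrc3, Hdgfrp2 and Nlrx1 (0.95 each). The libraries share depth, base composition and group, and the values are descriptions.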

How the data were processed

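The authors aligned single-end 75 bp reads to mm10 with STAR in Illumina's RNA Express. The submitters' processing notes also name HOMER, with no role. The counter, annotation, versions and use of strand are not given in the sources used here. The deposited counts are whole and not normalized. The deposited FPKM values are scaled by gene length and by size factors equal to those of DESeq2. The authors' regularised log2 values served 1 alternative, and the table of their own comparison was not used. No pair of libraries within a group agreed within sampling noise (20 pairs, chi-square per degree of freedom at least 7.98).

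The genes kept by filterByExpr, 11092 in all, were scaled with TMM and compared with the quasi-likelihood test of edgeR 4.0.16 (two-sided, R 4.3.3, no replicate block), with Benjamini-Hochberg adjustment at 0.05. The SE was derived from the F statistic. Alternatives were DESeq2 1.42.0, limma 3.58.1, other scalings and filters, a replicate block, leaving libraries out, and a GC content and length correction (splines of 5 degrees of freedom, values for 96.7% of tested genes). The fits were tested on simulated counts. Coordinates are from GENCODE M21. The gene set and lists were chosen with earlier results of these data known, and some genes of the pathway are not reported here. Named are the 6 genes, list genes that passed (at most the 4 largest in each direction) and the 3 genes of highest r (log2 CPM, prior count 2, mean of at least 50 counts); other list genes were named after their values were seen. Replicates are separate mice, and the labels name no batch or time of day.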

Additional observations from a re-analysis of the deposited data

Results flagged for a closer look

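In groups of 5 libraries, a library was picked where its gap to the next was a large part of the group's range. Over 44 such groups, 4 were picked, where chance gives about 2.2, and they are not independent. Chow replicate 2 had 46.9 CPM of Lrp6 where the rest of its group had 117 to 130.4 CPM, and its count ratio of Lrp5 to Lrp6 was 1.51 where the rest had 0.391 to 0.596. Chow replicate 1 had 66.6 CPM of Usp2 where the rest of its group had 133 to 152 CPM. TM5614 replicate 2 had a sum of 4485 CPM over the skeletal muscle markers where the rest of its group had 1.29 to 79.9 CPM.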

How the results depend on the processing

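Mylip (31 to 96 counts a library) and Vldlr (34 to 168) had the fewest counts of the 6. The 499 genes called became 900 with DESeq2, 1386 with limma-voom and sample quality weights, 184 at an adjusted p of 0.01, and 1230 without both libraries that stood apart (1217 with GC content and length also corrected, an alternative chosen after seeing the data). Those 2 libraries were themselves picked out from these same data. With 1 library left out the count ran from 235 to 1031, highest when Chow replicate 2 was left out. It was 293 when Chow replicate 3 was, and leaving out TM5614 replicate 1, 3 or 4 gave 331, 235 or 259. Of the 6 genes, 0 passed with all libraries. With DESeq2, with library totals alone and with GC content and length corrected, 1 passed. With limma-voom and without both libraries (with or without the correction) 2 passed, and 0 to 1 did with 1 library left out. Of all genes, 469 were called with library totals alone and 731 with GC content and length corrected. Each of the 6 had 24 alternatives. Mylip (0.04 to 0.42) and Lrpap1 (-0.22 to -0.03) kept their sign and passed in none.

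Lrp5 kept its sign in all 24 and passed in 7: 0.44 with DESeq2, 0.52 with limma-voom, 0.49 with library totals alone, 0.48 with GC content and length corrected, 0.54 without both libraries and 0.59 with the correction as well; with 1 library left out it ran from 0.38 to 0.49 (edgeR adjusted p from 0.0118 to 0.154), and passed without Chow replicate 2. Sort1 kept its sign and passed in 3: -0.48 with limma-voom, -0.53 without both libraries and -0.53 with the correction as well; with 1 library left out it ran from -0.46 to -0.29. Lrp6 turned sign once, to -0.012 without Chow replicate 2, and with 1 library left out ran from -0.01 to 0.26. Vldlr turned sign in 7: -0.36 with limma-voom, -0.0088 with limma on log2(FPKM + 0.1), -0.037 with the replicate block, -0.61 without both libraries and -0.67 with the correction as well, and with 1 library left out it ran from -0.42 to 0.36. The causes were not tested.

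With the replicate number as a block 555 genes were called and none of the 6 (Lrp5 0.45, adjusted p = 0.0729 in edgeR). The same-numbered libraries had correlations of deviations from 0.03 to 0.32, over 0.1 in 3 of 5 pairs, so the numbers were not taken to pair the mice. DESeq2 called 2 related receptors, 4 LXR genes and 3 Wnt receptor genes, where edgeR called 1, 2 and 1. With deviations from the group means, 6 of the 18 most similar genes stayed among the first 3.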
